A study of Mus musculus with 6 samples.

Results

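Chemokines and their receptors were examined in brown adipose tissue (BAT) from 3 miR-22 KO mice and 3 WT mice. The genes were taken by a rule on their symbols: ligands of the CC, CXC, CX3C and XC families, their typical receptors, and the atypical receptors named *Ackr*. That rule was set with earlier results of these data known. In the RefSeq annotation of GRCm38.p6, 65 genes were taken by this rule, of which 44 were ligand genes or ligand pseudogenes, 17 typical receptors and 4 atypical receptors. Of these, 56 had a probe on the array and 40 could be tested (25 ligands, 12 typical receptors and 3 atypical receptors), among 14711 genes tested in all. The study asked how gene expression in BAT differs when miR-22 is absent. All mice were male and 8 weeks old, the KO mice carry a germline loss of miR-22 in every tissue and came from the Jackson Laboratory, and each mouse gave 1 array of total RNA labelled with the dye Cy3.

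Chemokines are small secreted or membrane-anchored proteins that direct the migration of leukocytes. They bind receptors that span the membrane and couple to G proteins, and an inflammatory set is made on demand by macrophages, endothelium and stromal cells, while a homeostatic set is made constantly and keeps cells at their place. Atypical receptors bind chemokines without the usual G protein signal and shape how much ligand remains outside cells. In adipose tissue, this system is best known for the recruitment of monocytes that become macrophages.

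The microRNA that the KO mice lack acts through base pairing of its seed with messenger RNAs. The main mature strand, encoded at chr11:75463772-75463793 on the plus strand (RefSeq, GRCm38.p6), is shown with its seed, bases 2 to 8, in capitals:
mmu-miR-22-3p: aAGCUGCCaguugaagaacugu
Sites for this seed in chemokine transcripts were not analysed here. No probe was matched to the mature strand, and thus the deletion itself could not be checked here. *Mir22hg*, the long RNA that carries it, read 1.204, 1.69 and 1.22 in WT mice against 2.02, 2.11 and 2.23 in KO mice, on the scale that is used for all values below. That scale is the log2 of the spot signal divided by the 75th percentile of the same array, so that 0 is the signal of a spot at that percentile. The values compare mice for a given probe, and not genes with each other.

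The arrays differed in quality. Spots marked by the scanner software as uneven or as outliers made up 17.1% of spots in WT mouse 3 and 15.1% in KO mouse 1, against 4.87% to 6.12% on the other 4 arrays, and they were left out. The share of spots well above background was 55.8% in KO mouse 1 and 62.3% to 66.5% in the others. Skeletal muscle markers, a sign of tissue taken along with the fat, had a mean of -5.62 in WT mouse 3 and 0.42 to 3.86 in the other 5 mice. The arrays of WT mice 1 and 2 lay in a row of the slide that held no KO array, while WT mouse 3 shared its row with all 3 KO mice. A fit with the slide row as a block thus compares the KO mice with WT mouse 3 alone, as does a fit within the shared row. Both give the same difference for a given probe by design, so that they are not separate checks. Where leaving out WT mouse 3 or KO mouse 1, or taking the slide row into account, changed a call, this is stated beside the gene.

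Among the 40 genes tested, 13 were higher in KO mice and 7 were lower at an unadjusted p under 0.05, the threshold of the study's methods, and 20 did not pass. The lower calls include *Cxcl17*, which qualified through the WT mice alone and was not above background in any KO mouse, so that 6 of them were measured in both groups. Those shares are 32.5% and 17.5%. Of all tested genes, 10% were higher and 8.82% were lower. Together, 20 of 40 passed, against 18.8% of all genes. The median log2 difference, KO minus WT, was 0.44 over these genes and -0.03 over all tested genes, and 29 of the 40 differences were positive. Only 1 chemokine gene, *Cx3cl1*, passed after Benjamini-Hochberg adjustment over all genes, as did 0.184% of all genes. Of the 38 genes with values in all 6 mice, 11 had every KO mouse above every WT mouse and 6 had every KO mouse below, against 14.2% and 14.7% of all such genes, with *Cxcl17* again among the latter.

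The share of higher calls differed with the signal. Genes with a mean signal below -3 made up 16 of the 40 and had 6 of the 13 higher calls (37.5%), while 15.8% of all 3974 genes in that range were higher. The other 24 genes had 7 higher and 6 lower calls (29.2% and 25.0%), against 7.91% and 9.83% of 10737 genes. With quantile normalization, 9 genes were higher and 7 were lower, against 7.99% and 10.2% of all genes. With normexp background correction, 8 were higher and 6 lower, against 7.06% and 8.56%. With marked spots kept, 14 were higher and 7 lower of 43, against 9.47% and 11.1% of all genes. With the slide row as a block, 9 were higher and 3 lower, against 6.1% and 2.38% of all genes. Within the shared slide row 8 were higher and 1 was lower of 39, against 5.64% and 1.86%. Of all calls across the array, 72.0% were higher with the block and 75.2% within the shared row.

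**Figure D1:**
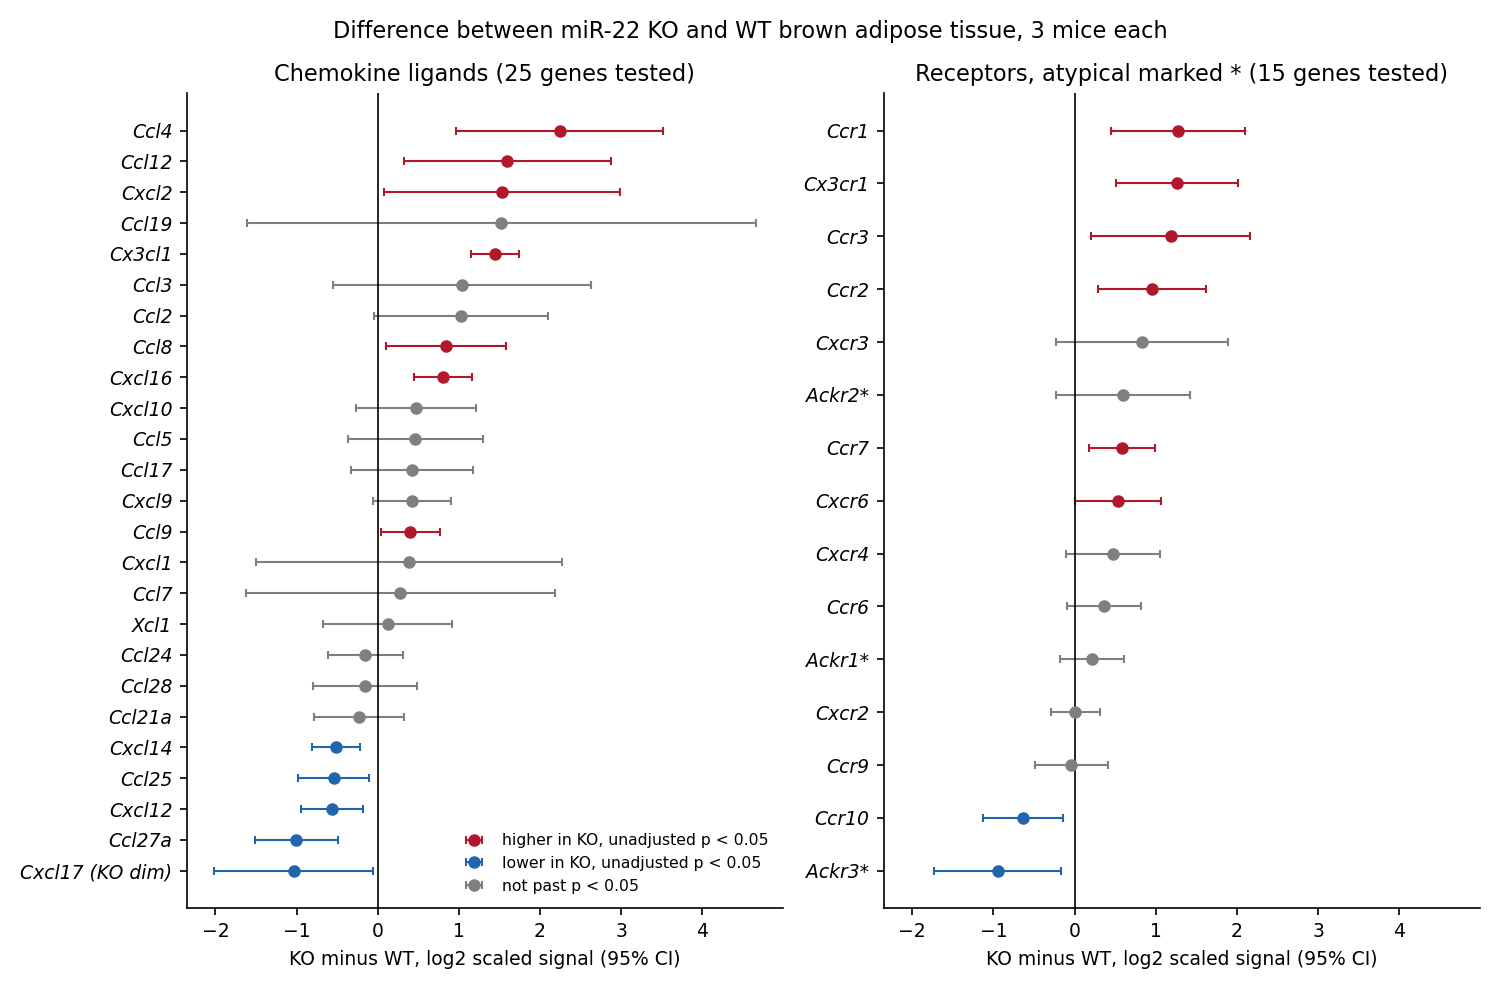
Log2 difference between 3 KO and 3 WT mice for each tested ligand (left) and receptor (right). Points are differences and bars are 95% confidence intervals from limma, with red for higher and blue for lower at an unadjusted p under 0.05. Among genes above background in both groups, the differences ran from -1.002 for *Ccl27a* to 2.24 for *Ccl4*, and 29 of the 40 points lay to the right of 0. The point of *Cxcl17*, marked KO dim, is not a measured difference, since its signal was not above background in any KO mouse.

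Higher calls were found among ligands and typical receptors, beside 10% of all tested genes that were higher and 8.82% that were lower. Of 3 atypical receptors tested, 0 were higher and 1 was lower. Of 25 ligands, 7 were higher and 5 lower, with a median difference of 0.42. Of 15 typical and atypical receptors, 6 were higher and 2 lower, with a median of 0.53. The difference between these medians was not tested, and their order was not stable. The ligand median was the higher one with normexp background correction (0.23 against 0.19), with the slide row as a block (0.61 against 0.42), within the shared slide row (0.62 against 0.42), without WT mouse 1 (0.51 against 0.40) and without KO mouse 2 (0.38 against 0.35). The changes are in RNA of whole tissue, where fewer cells of a type and less RNA per cell cannot be told apart.

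The clearest difference was in *Cx3cl1*, which encodes fractalkine, a chemokine that is made as a membrane protein and holds or attracts monocytes and macrophages that bear CX3CR1. Its only probe read -2.16, -2.23 and -2.30 in WT mice and -0.85, -0.72 and -0.78 in KO mice. The groups were far apart and each spanned less than 0.15 on the log2 scale. The difference was 1.44 (standard error 0.13), or 2.72-fold, with an adjusted p of 0.0283 from limma. It was 1.41 without WT mouse 3, 1.48 without KO mouse 1 and 1.52 within the shared slide row. With the slide row as a block or within the shared row, it passed an unadjusted p of 0.05, but 0 chemokine genes passed the adjusted threshold. The unadjusted p stayed under 0.05 with any mouse left out, while the adjusted p rose above 0.05 with 5 of the 6 mice left out in turn, KO mouse 1 being the exception. *Cx3cl1* lies on chromosome 8 at positions 94772180 to 94782427. The 250 bases before its annotated start, chr8:94771930-94772179 on the plus strand, are shown since this gene carried the strongest call, with the TATA box letters TATAAA in capitals:
Cx3cl1: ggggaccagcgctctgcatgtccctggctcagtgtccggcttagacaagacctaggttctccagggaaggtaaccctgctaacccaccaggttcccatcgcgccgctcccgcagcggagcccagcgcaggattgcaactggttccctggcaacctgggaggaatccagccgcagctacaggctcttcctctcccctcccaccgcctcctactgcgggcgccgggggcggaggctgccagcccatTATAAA
These letters, on either strand, occur in the 250 upstream bases of 14.3% of 27025 genes. They do so in 14 of the 46 chemokine and receptor genes whose promoter was available. In *Cx3cl1* they stand directly before the annotated start. A match of letters does not show a working TATA box, and any part of it in the signal was not tested.

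*Cxcl16* encodes the other chemokine with a membrane anchor, which also takes up oxidized lipoprotein and attracts T and NKT cells through CXCR6. It read -1.63, -1.43 and -1.27 in WT mice and -0.73, -0.68 and -0.50 in KO mice, so every KO mouse was above every WT mouse. The difference was 0.81 (standard error 0.15, adjusted p = 0.0743 from limma). *Cx3cl1*, *Cxcl16*, *Ccl4* and *Ccr1* were the 4 genes that kept an unadjusted p under 0.05 under every alternative in which they were tested.

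The largest group of inflammatory CC chemokines lies in a cluster on chromosome 11, from 82035577 to 83664683, with 12 genes by the rule. Of these, 8 were tested, 4 were higher and none was lower, and all 8 differences were positive, with a median of 0.93. By comparison, 32.5% of the 40 chemokine and receptor genes and 10% of all tested genes were higher, and 8.82% of all tested genes were lower. *Ccl4*, which encodes an attractant made by activated macrophages and lymphocytes, read -4.13, -4.55 and -5.40 in WT mice and -1.29, -3.002 and -3.07 in KO mice. The groups did not overlap, and the difference was 2.24 (standard error 0.54, adjusted p = 0.114). The high value of KO mouse 1 contributed to it, since the difference was 1.66 without that mouse. With normexp background correction the difference was 1.41, and the WT values lay near the background. *Ccl12*, a mouse monocyte attractant that binds CCR2, read -3.06, -3.10 and -5.07 in WT mice and -1.94, -1.95 and -2.54 in KO mice. Here WT mouse 3 stood low, and the difference of 1.60 (standard error 0.54, adjusted p = 0.196) became 0.94 without it and 2.92 within the shared slide row, where that mouse alone stands for WT. The call was lost without KO mouse 2, at 1.502.

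The remaining calls of this cluster were smaller. *Ccl8*, an attractant of monocytes and T helper cells, read -1.56, -0.52 and -0.58 in WT mice and -0.34, 0.25 and -0.05 in KO mice, with a difference of 0.84 (standard error 0.31, adjusted p = 0.225). *Ccl9*, a CCR1 ligand that draws myeloid cells, read 1.80, 1.40 and 1.48 in WT mice and 1.88, 2.03 and 1.98 in KO mice, with a difference of 0.40 (standard error 0.15, adjusted p = 0.233). In both genes the KO mice lay above all WT mice, but the highest WT mouse came close. *Ccl8* lost its call without WT mouse 1 (0.50), KO mouse 2 (0.69) or KO mouse 3 (0.84). The call of *Ccl9* was lost when any mouse but WT mouse 1 was left out, with 0.36 without WT mouse 3 and 0.44 without KO mouse 1. *Ccl2*, the principal monocyte attractant of adipose tissue, read 1.01, 0.27 and -0.75 in WT mice and 1.66, 1.17 and 0.77 in KO mice. The groups overlapped, and the difference of 1.02 did not pass the test (95% confidence interval -0.04 to 2.09). It was 0.56 without WT mouse 3 and 1.95 within the shared slide row. It passed an unadjusted p of 0.05 in that row, with the row as a block and without WT mouse 1, at 1.44.

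*Ccl3*, a neighbour of *Ccl4* that binds CCR1, differed by 1.04 (interval -0.55 to 2.62), *Ccl5* by 0.46 (interval -0.37 to 1.29) and *Ccl7* by 0.28 (interval -1.62 to 2.18). None of these passed the test. *Ccl7* depended on the WT mice, at -0.49 without WT mouse 3 and 1.82 within the shared slide row, where it passed an unadjusted p of 0.05, as it did with the row as a block. *Ccl5* passed without WT mouse 2, at 0.81. *Ccl11*, which draws eosinophils, and *Ccl6* were left out of the test since too many of their spots were marked. With marked spots kept, they differed by 0.07 (standard error 0.18) and 0.06 (standard error 0.16), and neither passed.

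**Figure D2:**
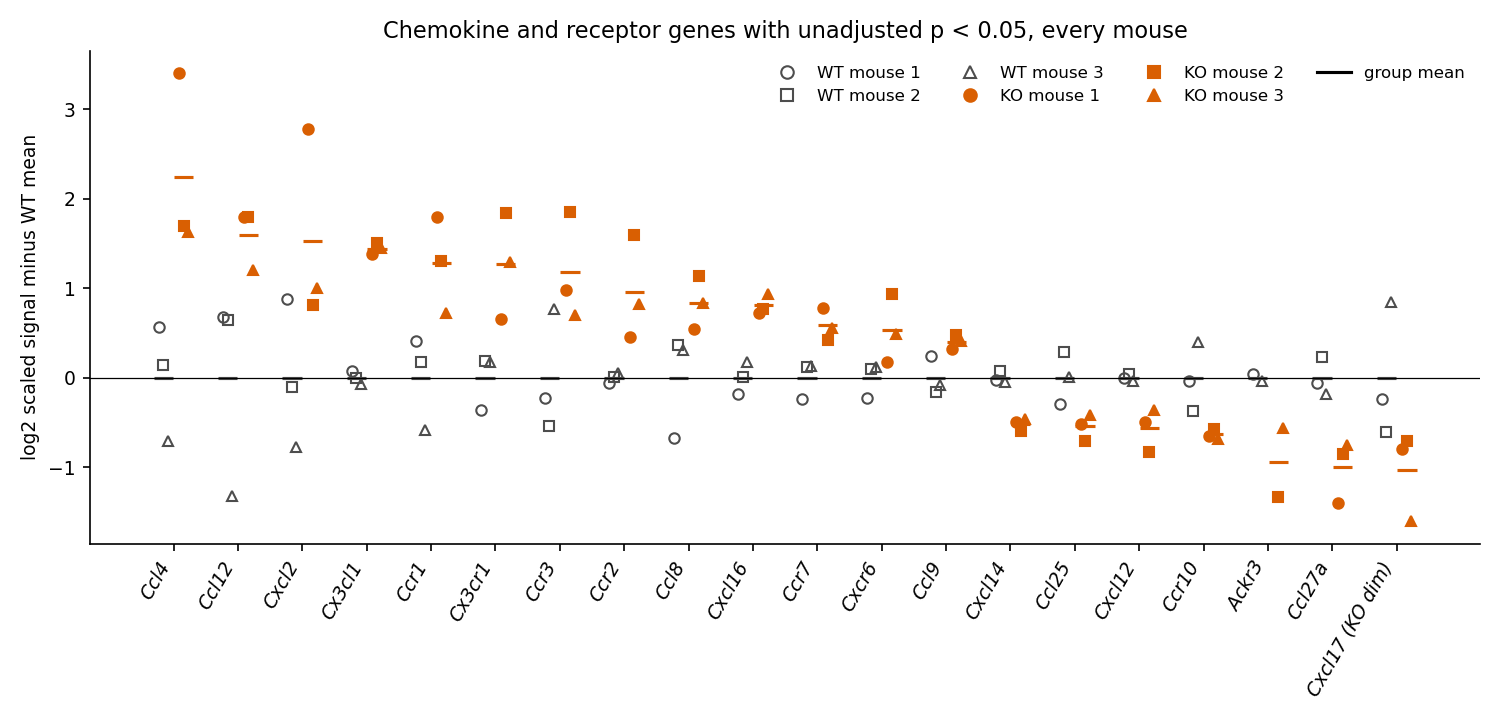
Every mouse for the 20 genes past an unadjusted p of 0.05, as log2 scaled signal minus the mean of the WT mice. Open symbols are WT mice, filled symbols are KO mice and bars are group means. KO mouse 1 stands high for *Ccl4* and *Cxcl2*, and the groups overlap for *Cxcl2* and *Ccr3*. KO dim marks a gene not above background in any KO mouse.

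The CXC ligands that act on neutrophils through CXCR2 lie in a cluster on chromosome 5. NF-κB, the main inflammatory transcription factor, is known to act on this family, so the letters GGGANTTTC, taken from its motif, were searched in the 250 bases before the start of each gene on both strands. They occurred in 1.11% of 27025 genes and in 6 of the 46 chemokine and receptor genes with a promoter in the table. These were *Cxcl1*, *Cxcl2* and *Cxcl3*, where the letters stand in the direction of the gene, and *Cxcl9*, *Ccr3* and *Cxcr2*, where they stand on the opposite strand. The start used for *Ccr3* lies inside the annotated gene. The motif is in capitals in the following stretches of GRCm38.p6, all given in the direction of the gene. They lie at chr5:90891159-90891197, chr5:90903787-90903825 and chr5:90786013-90786051 on the plus strand, chr5:92328210-92328248 on the minus strand, and chr9:124021778-124021816 and chr1:74153822-74153860 on the plus strand:
Cxcl1: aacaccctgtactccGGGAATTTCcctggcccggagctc
Cxcl2: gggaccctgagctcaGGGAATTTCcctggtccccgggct
Cxcl3: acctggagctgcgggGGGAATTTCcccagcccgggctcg
Cxcl9: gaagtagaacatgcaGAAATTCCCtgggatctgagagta
Ccr3: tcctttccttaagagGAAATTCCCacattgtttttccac
Cxcr2: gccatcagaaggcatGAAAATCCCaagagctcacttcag
The motif begins 71, 97 and 73 bases before the start of *Cxcl1*, *Cxcl2* and *Cxcl3*. A match of letters does not show that the factor binds there.

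Of the genes with these letters, 5 were tested, and 2 of them, *Cxcl2* and *Ccr3*, were higher at an unadjusted p under 0.05. The share of higher calls was 10% over all tested genes and 32.5% over the 40 chemokine and receptor genes. So few genes do not show whether a response was shared. *Cxcl2* read -3.70, -4.69 and -5.35 in WT mice and -1.80, -3.77 and -3.58 in KO mice. The groups overlapped, since KO mouse 2 lay below WT mouse 1, and the difference of 1.53 (standard error 0.61, adjusted p = 0.247) no longer passed an unadjusted p of 0.05 without KO mouse 1 (0.91) or without WT mouse 3 (1.14). It was 2.30 within the shared slide row. *Cxcl1* read -1.09, -2.86 and -3.44 in WT mice and -0.63, -2.45 and -3.17 in KO mice, with a difference of 0.38 that did not pass and that was -0.11 without WT mouse 3 and -0.34 without KO mouse 1. *Cxcl3* was not above background in any mouse.

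Several inflammatory ligands spread widely among the mice of a group. *Cxcl1* spanned 5.11-fold among WT mice and 5.82-fold among KO mice. *Ccl7* spanned 7.04-fold and *Ccl12* 4.01-fold among WT mice. In contrast, *Cx3cl1* spanned 1.11-fold among WT mice and 1.09-fold among KO mice. In *Cxcl1*, *Cxcl2*, *Ccl2*, *Ccl3*, *Ccl4*, *Ccl7* and *Ccl12*, WT mouse 1 was the highest of the WT mice and WT mouse 3 the lowest. KO mouse 1 was the highest of the KO mice in all of these but *Ccl7*, where its spot was left out. WT mouse 3 is the mouse with the low skeletal muscle markers, and their part in these values was not tested.

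A single mouse set the value of *Ccl19*, a ligand of CCR7 that is known from lymph nodes and other lymphoid tissue. It read -4.14, -3.93 and -4.25 in WT mice, 0.86 in KO mouse 1, and -4.03 and -4.58 in the other KO mice. KO mouse 1 thus stood 43.5-fold above the lowest KO mouse. The mean difference of 1.52 became -0.20 without it, and neither value passed the test. *Ccl21a*, the other CCR7 ligand, read 0.34 in KO mouse 1 and 0.70 and 0.49 in the other KO mice. Of 9 B cell markers, 6 were not above background, and the 3 others did not pass the test. The highest of these, *Cd79b*, a part of the B cell receptor, read -3.66, -3.03 and -3.02 in WT mice and -2.27, -2.79 and -3.59 in KO mice, and was thus also highest in KO mouse 1. *Pax5* and *Cr2*, by contrast, were not highest in KO mouse 1. *Pax5* read -5.05 there and -5.22 and -4.41 in KO mice 2 and 3. *Cr2* read -4.60 there and -4.25 and -4.84 in KO mice 2 and 3. The part of B cells in the value of *Ccl19* was not tested.

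**Figure D3:**
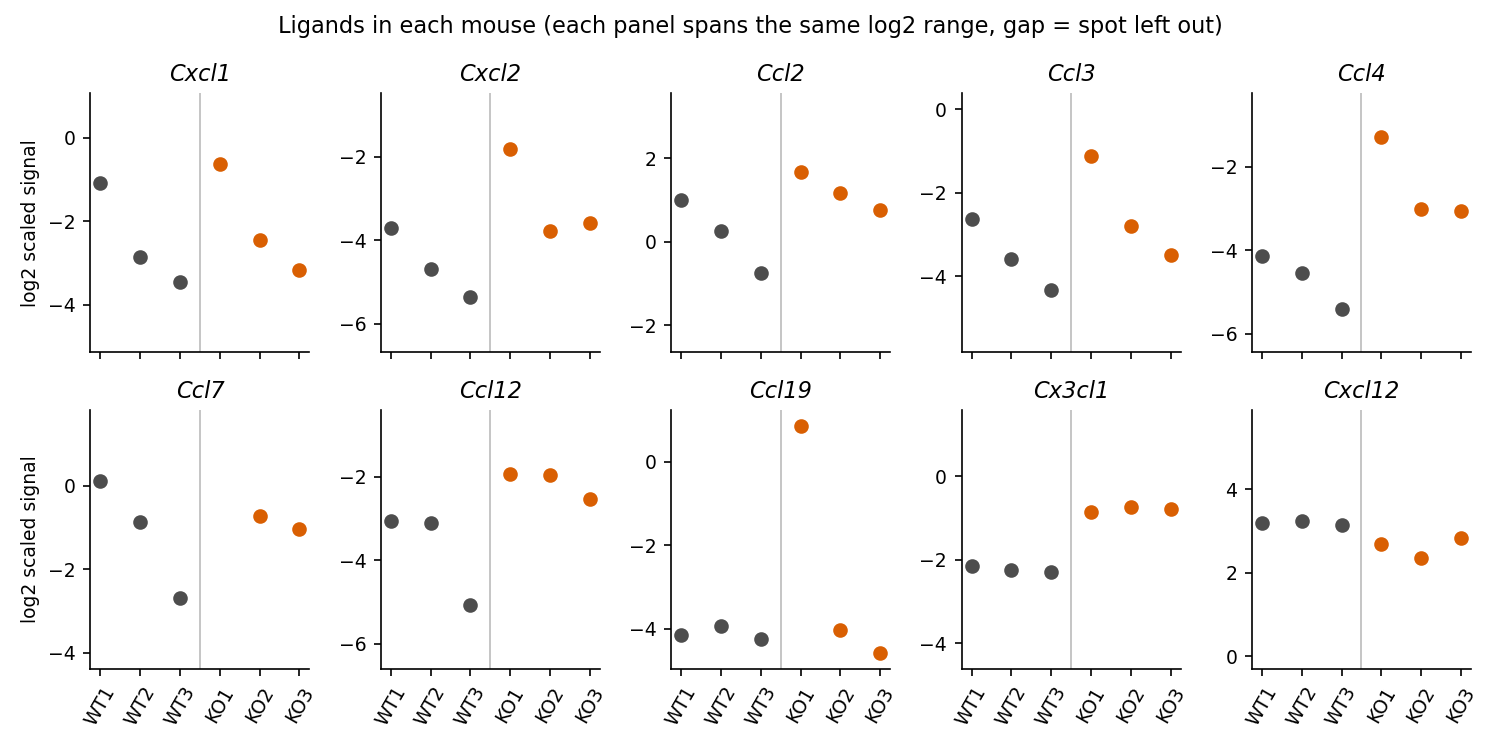
Log2 scaled signal of 10 ligands in each mouse, in panels of equal height, with WT mice in grey and KO mice in orange. The points of *Cx3cl1* form a low and a high group, those of *Cxcl1* spread within each group, and *Ccl19* is high in KO mouse 1 only.

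Ligands induced by interferon showed positive differences that did not pass the test. *Cxcl9* differed by 0.42 (interval -0.06 to 0.90) and *Cxcl10* by 0.47 (interval -0.26 to 1.21), and both attract activated T cells and NK cells through CXCR3. Without WT mouse 2, both passed an unadjusted p of 0.05, with differences of 0.61 and 0.79. *Ccl17*, which draws T helper cells, differed by 0.42 and did not pass, other than with the slide row as a block. *Ccl24*, *Ccl28* and *Xcl1* differed by -0.15, -0.16 and 0.12, and none passed.

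Of the ligands, 5 were lower in KO mice, *Cxcl17* included. *Ccl27a*, best known from skin, read 2.41, 2.70 and 2.29 in WT mice and 1.06, 1.61 and 1.71 in KO mice. All KO mice lay below all WT mice, and the difference was -1.002 (standard error 0.22, adjusted p = 0.0955), or 2.003-fold lower. *Cxcl12*, the stromal ligand that retains cells bearing CXCR4, read 3.19, 3.24 and 3.15 in WT mice and 2.70, 2.36 and 2.83 in KO mice, with a difference of -0.56 (standard error 0.16, adjusted p = 0.15). The groups did not overlap, and its signal was above the 75th percentile of the array in every mouse. The 250 bases before its start, chr6:117168285-117168534 on the plus strand, are shown beside those of *Cx3cl1* as the promoter of a ligand that was lower, and they hold neither the TATA box letters nor the NF-κB letters:
Cxcl12: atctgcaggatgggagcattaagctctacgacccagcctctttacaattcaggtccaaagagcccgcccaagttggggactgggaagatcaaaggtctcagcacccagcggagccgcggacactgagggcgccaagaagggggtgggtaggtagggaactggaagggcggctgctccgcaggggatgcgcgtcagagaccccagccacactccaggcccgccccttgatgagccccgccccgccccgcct

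*Cxcl14*, an epithelial and adipose ligand that draws monocytes and dendritic cells, read -0.08, 0.01 and -0.10 in WT mice and -0.55, -0.65 and -0.52 in KO mice. The groups were tight and separate, with a difference of -0.52 (standard error 0.13, adjusted p = 0.115). *Ccl25*, known from thymus and gut, read 1.14, 1.72 and 1.45 in WT mice and 0.92, 0.73 and 1.02 in KO mice, with a difference of -0.54 (standard error 0.19, adjusted p = 0.198). *Cxcl17*, a mucosal chemokine, was above background in all 3 WT mice and in none of the KO mice. Its WT values were -5.48, -5.86 and -4.41. Taking the background limit of each KO array as its highest possible signal, it was at least 1.17-fold lower (adjusted p = 0.246 from limma). It entered the test through the WT mice alone, so that its call is a description. Within the shared slide row, *Ccl27a*, *Cxcl12*, *Cxcl14* and *Ccl25* differed by -0.82, -0.52, -0.47 and -0.55, and none of the 4 passed an unadjusted p of 0.05 there. *Ccl25* also lost its call without WT mouse 3 (-0.54), WT mouse 2 (-0.40) or KO mouse 2 (-0.46).

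Of the 12 typical receptors tested, 6 were higher, 1 was lower and 5 did not pass. Over all tested genes, 10% were higher and 8.82% lower. *Cx3cr1*, the receptor for fractalkine, read -3.51, -2.96 and -2.98 in WT mice and -2.49, -1.30 and -1.85 in KO mice. No KO mouse overlapped with the WT mice, and the difference was 1.27 (standard error 0.32, adjusted p = 0.123). *Ccr2*, which brings monocytes out of the blood, read -1.84, -1.77 and -1.73 in WT mice and -1.32, -0.19 and -0.95 in KO mice. The WT mice were close together and the KO mice spread, with a difference of 0.96 (standard error 0.28, adjusted p = 0.155). For both receptors KO mouse 2 was the highest, and within the shared slide row the differences of 1.096 and 0.91 did not pass an unadjusted p of 0.05.

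*Ccr1*, a receptor for CCL3, CCL5 and CCL9 on myeloid cells, read -4.85, -5.08 and -5.84 in WT mice and -3.46, -3.95 and -4.53 in KO mice, with a difference of 1.28 (standard error 0.35, adjusted p = 0.14). Its signal was above background in 2 of 3 WT mice and all KO mice. With normexp background correction the difference of *Ccr1* was 0.49. *Ccr3*, the receptor of eosinophils, read -5.56, -5.87 and -4.56 in WT mice and -4.34, -3.48 and -4.62 in KO mice. The groups overlapped, with a difference of 1.18 (standard error 0.42, adjusted p = 0.207). Its call was lost without WT mouse 1 (1.07), WT mouse 2 (0.91) or KO mouse 2 (0.85).

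*Ccr7*, which guides dendritic cells and T cells to lymph nodes, read -5.18, -4.82 and -4.81 in WT mice and -4.16, -4.52 and -4.38 in KO mice, with a difference of 0.59 (standard error 0.17, adjusted p = 0.153). *Cxcr6*, the receptor for CXCL16, read -4.16, -3.83 and -3.81 in WT mice and -3.76, -2.99 and -3.44 in KO mice. Although these groups did not overlap, the difference of 0.53 (standard error 0.22, adjusted p = 0.262) was the weakest of the calls and lost its unadjusted p under 0.05 in 16 of 20 alternatives, among them leaving out any mouse but KO mouse 1. The signals of *Ccr1*, *Ccr3* and *Ccr7* lay close to the background, where more genes of the whole array were called higher. Under quantile normalization the differences of *Ccr3*, *Ccr7*, *Cxcr6* and *Cxcl2* were 0.97, 0.37, 0.35 and 1.34, and under normexp background correction 0.39, 0.11, 0.19 and 0.996. None of these 4 passed an unadjusted p of 0.05 in either. Within the shared slide row, *Ccr3*, *Ccr7* and *Cxcr6* differed by 0.42, 0.46 and 0.41, as did *Ccl8* by 0.53 and *Ccl9* by 0.48, and none of them passed there. The lowest signal well above background was -4.60 in KO mouse 1 and -5.75 to -6.26 in the other mice.

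Of the other typical receptors, *Ccr10*, the receptor for CCL27 and CCL28, was lower. It read -1.98, -2.32 and -1.55 in WT mice and -2.60, -2.52 and -2.64 in KO mice, and the groups did not overlap. The difference was -0.63 (standard error 0.21, adjusted p = 0.19). It lost its call without WT mouse 3 (-0.43) or KO mouse 3 (-0.61), and was -1.04 within the shared slide row. *Cxcr4*, the signalling receptor for CXCL12, differed by 0.47 (interval -0.11 to 1.05), *Cxcr3* by 0.83 (interval -0.23 to 1.89) and *Ccr6*, which guides lymphocytes and dendritic cells, by 0.36 (interval -0.09 to 0.82). None of these passed. The smallest differences were those of *Cxcr2*, the neutrophil receptor, at 0.01 (interval -0.30 to 0.32), and *Ccr9*, the receptor for CCL25, at -0.04 (interval -0.49 to 0.41). *Cxcr3*, *Ccr6* and *Ccr9* were each above background in only 2 of 3 KO mice, which limits what their differences show.

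A second cluster of interest lies on chromosome 9, where 6 of the receptor genes examined span 123767211 to 124109140. Of the 5 tested, *Ccr1*, *Ccr2*, *Ccr3* and *Cxcr6* were higher and *Ccr9* did not pass. By comparison, 32.5% of the 40 chemokine and receptor genes and 10% of all tested genes were higher. As given above, *Ccr3* and *Cxcr6* lost their calls with quantile normalization and with normexp background correction.

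Of the atypical receptors, *Ackr3*, which removes CXCL12, had the largest difference. With the marked spots of WT mouse 2 and KO mouse 1 left out, it read 2.71 and 2.64 in WT mice and 1.34 and 2.12 in KO mice. The difference was -0.95 (standard error 0.30, adjusted p = 0.211) on these 4 mice and -0.87 with the marked spots kept. With the slide row as a block or within the shared row, where WT mouse 3 alone stands for WT, the difference was -0.91. It did not pass an unadjusted p of 0.05 with the block. *Ackr2*, a scavenger of inflammatory CC chemokines, differed by 0.60 (interval -0.23 to 1.43) and *Ackr1*, which carries chemokines across venules, by 0.22 (interval -0.17 to 0.61), and neither passed. Without KO mouse 1, *Ackr2* did pass an unadjusted p of 0.05, at 0.98.

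Ligands were next set beside the receptors that they bind. From a list of 38 known pairs, both genes were tested in 22. In 4 pairs both genes were higher: *Cx3cl1* with *Cx3cr1*, *Cxcl16* with *Cxcr6*, *Ccl12* with *Ccr2* and *Ccl9* with *Ccr1*. In 2 pairs both were lower, *Ccl27a* with *Ccr10* and *Cxcl12* with *Ackr3*. In no pair were the calls opposite, and in 19 the differences had the same sign. Pairs share genes and all come from the same 6 mice, so that these counts are a description. Among the 40 genes tested, 29 had positive differences, 13 were higher and 7 lower. Genes paired without regard to binding would therefore also often share a sign. The 3 pairs with opposite signs were *Cxcl12* with *Cxcr4*, *Ccl21a* with *Ccr7* and *Ccl24* with *Ccr3*.

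**Figure D4:**
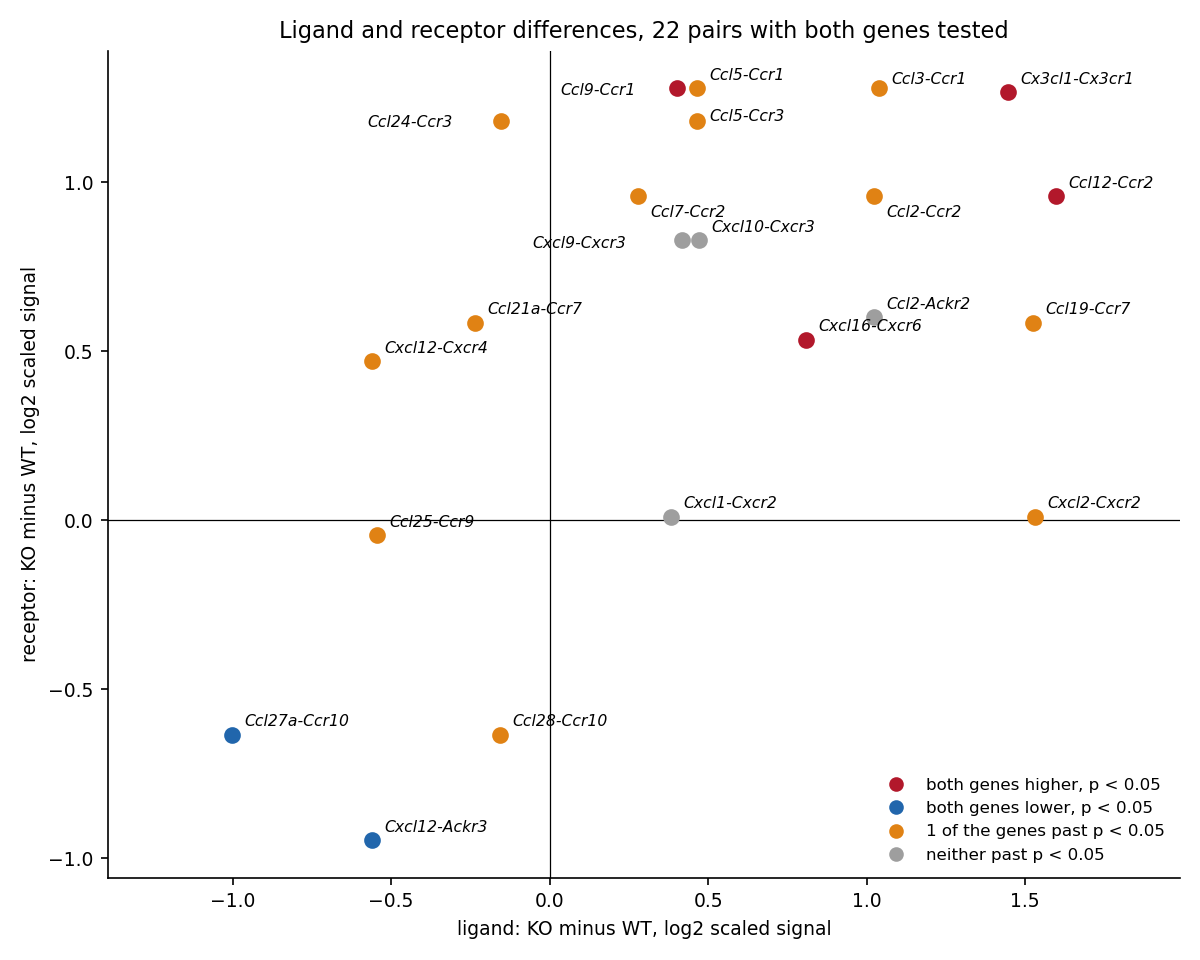
Log2 difference between KO and WT mice of each receptor (vertical) against that of its ligand (horizontal), for 22 pairs with both genes tested. A receptor with several ligands appears several times. The 4 red pairs lie in the upper right and the 2 blue pairs in the lower left.

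Several genes had more than 1 probe above background. Of 12 such further probes, 9 had a difference of the same sign as the probe that stood for the gene, and for the called genes 8 of 10. The second probe of *Cx3cr1* gave 1.97, that of *Ccl4* 1.82, that of *Cxcl16* 0.59 and that of *Cxcr6* 0.59. Of the genes that were lower, *Ccl27a* gave -0.99 and -0.39 with its other probes. In contrast, the second probe of *Cxcl12* gave -0.05 and that of *Cxcl14* gave 0.26, and the further probes of *Ccl25* gave -0.64 and 0.00. The lower calls of *Cxcl12*, *Cxcl14* and *Ccl25* thus hold for some of their probes and not for all. *Ccl27a* and *Ccl21a* have copies in the genome (*Ccl27b*, *Ccl21b* and others) for which no probe was matched, so their signals may include transcripts of these copies.

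Of the 16 genes with a probe that were not tested, 13 were too dim. These were *Ccl1*, *Ccl20*, *Ccl22*, *Ccl26*, *Cxcl3*, *Cxcl5* and *Cxcl15* among the ligands, *Ccr4*, *Ccr8*, *Cxcr1*, *Cxcr5* and *Xcr1* among the receptors, and *Ackr4*. Only *Ccl1* was above background in any mouse, WT mouse 2. The others were not well above background on any array, which sets an upper limit to their signal and not a level. *Cxcl13*, which attracts B cells, had too many marked spots. With those kept, it read 0.57, 0.78 and 0.91 in WT mice and 0.89, 1.28 and 1.42 in KO mice, and its difference of 0.44 passed an unadjusted p of 0.05 (adjusted p = 0.238), with overlapping groups.

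Genes that act downstream of chemokine receptors or share their biology were taken from a list of 60. Of 53 tested, 15 were higher and 5 lower, with a median of 0.14. Across all tested genes, 10% were higher and 8.82% lower. The smallest p values belonged to *Rgs16*, which shortens G protein signals, and *Ppbp*, a platelet chemokine outside the naming rule. *Rgs16* was -2.88, -2.87 and -3.67 in WT mice and -1.69, -1.62 and -1.59 in KO mice, with a difference of 1.51 (standard error 0.24, adjusted p = 0.0596). All KO mice lay above all WT mice. *Ppbp* differed by 0.99 (adjusted p = 0.0649), and *Vav1*, an exchange factor of leukocytes, and *Fpr2*, a receptor for formyl peptides, by 0.64 and 0.90. *Jak3*, a kinase of cytokine receptors, was lower, with a difference of -0.70.

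Cytokines and receptors that induce chemokines were mostly without a call. Of 20 tested, 2 were higher and none lower, with a median of -0.06. This share of higher calls equals the 10% of all tested genes. The 2 genes were *Tnf*, at 0.87 (standard error 0.25, adjusted p = 0.148), and its receptor *Tnfrsf1b*, at 0.97 (standard error 0.18, adjusted p = 0.0743). *Tnf* read -4.53, -4.61 and -5.39 in WT mice and -3.79, -4.03 and -4.09 in KO mice, all near the background. *Tnfrsf1b* was dimmer, at -5.45, -5.65 and -5.93 in WT mice and -4.50, -4.78 and -4.85 in KO mice. It was above background on 5 of the 6 arrays.

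Markers of the cells that bear these receptors were measured on the same arrays. Means were taken over all markers above background, with marked spots kept. The counts of calls stand beside 10% of all tested genes that were higher and 8.82% that were lower. Among all genes with a mean signal below -3, 15.8% were higher. The mean of 14 macrophage markers was 0.90 to 1.08 in WT mice and 1.11 to 1.38 in KO mice, with 3 of 12 tested markers higher and none lower. The highest was *Fcgr1*, an antibody receptor of macrophages, at 1.04 (adjusted p = 0.0508). Mast cell markers had means of -1.73 to -1.34 in WT mice and -0.60 to -0.32 in KO mice, with 4 of 6 higher, among them *Kit*, the receptor for stem cell factor, at 1.62 (adjusted p = 0.0425). NK cell markers ran from -3.95 to -3.28 in WT mice and from -3.03 to -2.71 in KO mice, with 2 of 6 higher.

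T cell markers had 1 of 10 higher, dendritic cell markers 1 of 8, neutrophil markers 1 of 5 and eosinophil markers 1 of 3, all with overlapping ranges of the mean. Beside the 10% of all tested genes that were higher, single calls in such short lists were not read as a change in these cells. In the lists for fibroblasts with pericytes and for brown adipocytes, 0 genes were higher, and 2 of 6 and 1 of 5 were lower. The means of the former were 2.75 to 2.79 in WT mice and 2.49 to 2.68 in KO mice, and those of the latter 2.52 to 2.93 and 2.18 to 2.77. None of 9 endothelial markers passed, with means of 1.202 to 1.47 in WT mice and 1.28 to 1.39 in KO mice. All 10 brown adipocyte markers were above background. White adipocyte markers had 1 of 6 higher, and 0 of 4 markers of all adipocytes and 0 of 2 of lymphatic endothelium passed. The part of the number of macrophages, mast cells or NK cells in the higher receptor signals was not tested, nor was that of stromal cells in the lower *Cxcl12*.

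**Figure D5:**
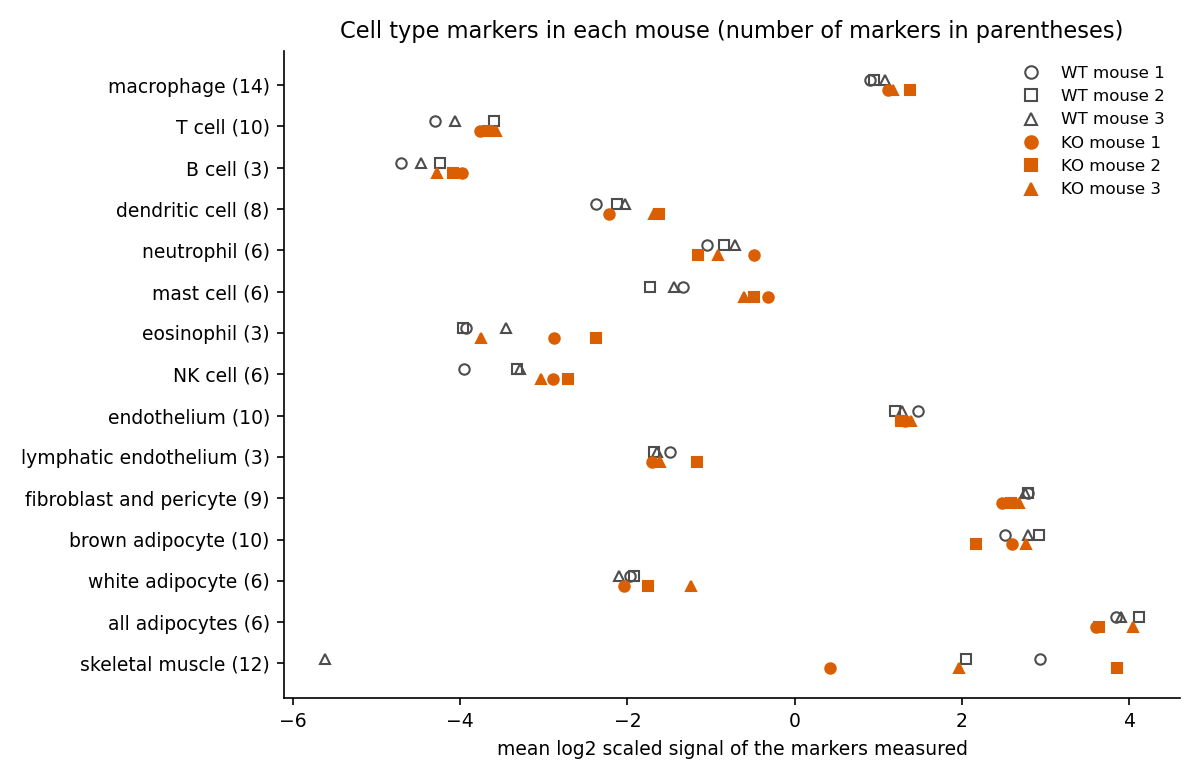
Mean log2 scaled signal of the markers of each cell type in every mouse, with the number of markers measured in parentheses, open symbols for WT mice and filled symbols for KO mice. Macrophage, mast cell and NK cell markers lie further right in each KO mouse than in the WT mice, and the muscle markers of WT mouse 3 stand apart at -5.62.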

How the data were processed

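Total RNA of BAT, extracted with TRIzol, was hybridized to Agilent mouse (V2) gene expression arrays, with a single dye and an array for each mouse. The files that the authors deposited hold spot intensity values from Agilent Feature Extraction (version 11.5.1.1 per the file headers, 10.7 in the submitters' processing notes), where the processed signal is background-subtracted and detrended. The authors also deposited a table of log2 values of the same arrays for 27497 probes, whose scaling is not given in the sources used here and which served as an alternative. Its columns had medians of 8.83, 8.85, 8.84, 8.82, 8.83 and 8.83 (WT mice 1 to 3, KO mice 1 to 3) and correlated with their own arrays at 0.9998 or more.

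Processed signals were scaled to the 75th percentile of all spots that were no controls and log2 transformed. Marked spots were left out. Of 56605 probes, 33767 (59.7%) matched a RefSeq gene of GRCm38.p6, giving 23462 genes with a probe. A probe had to be well above background on at least 3 arrays with at least 2 unmarked values per group, and the brightest such probe stood for its gene, which left 14711 genes. Groups were compared with limma 3.58.1 in R 4.3.3 (lmFit and eBayes, two-sided, without covariates). The methods of the study name SAM, a test that regroups the samples, and limma was used in its place. The code was tested on simulated data. No spot was saturated, and precision is limited by the small number of arrays. Nothing in the labels names litters or days. With a single array for each mouse, the spread behind the p-values does not separate differences between mice from those between arrays.

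Named genes were those past an unadjusted p of 0.05, the 8 ligands and 6 receptors with the largest differences among the others, the tested binding partners of called genes and genes above background in 1 group only, and in other lists the 6 genes of smallest p at most. Other values were named for completeness after they were seen. The genes, lists and pairs were chosen with earlier results of these data known. A total of 2 genes are not reported here and were left out of the counts over these genes, lists and pairs, but not of the fit across all genes.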

Additional observations from a re-analysis of the deposited data

How the results depend on the processing

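The counts of lower and higher genes, 7 and 13 of 40, were recomputed under 20 alternatives, 2 of which (marked spots kept with quantile normalization, and WT mouse 3 and KO mouse 1 both left out) were chosen after seeing the data. The higher count fell to 9 with quantile normalization, 8 with normexp background correction, 8 with a plain t-test for each gene, 9 with the slide row as a block and 8 within the shared slide row. The lower count fell to 3 with the slide row as a block, 1 within the shared slide row and 3 without both WT mouse 3 and KO mouse 1. With single mice left out, there were 3 to 7 lower and 8 to 13 higher genes, the fewest lower without WT mouse 3 and the fewest higher without KO mouse 2. The count past the adjusted threshold was 0 with no filter on dim probes, that t-test, the slide row as a block, the shared slide row and without both of those mice, 2 with all 6 arrays above background, 3 with a trend and robust fit, and 0 to 1 with each mouse left out. The median of the ligands moved from 0.42 to 0.23 with normexp, 0.61 with the slide row as a block, 0.62 within the shared row and 0.20 without both mice, and was 0.28 to 0.57 with each mouse left out. The median of the receptors moved from 0.53 to 0.36 with quantile normalization, with or without marked spots, and 0.19 with normexp, and was 0.35 to 0.62 with each mouse left out. The median of all genes moved to 0.14 without the filter on dim probes. The cause of these changes was not tested, other than the smaller number of arrays in fits that left some out.

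Over 37 named genes, 597 of 724 alternative values kept their direction and side of the threshold, 89 lost and 12 gained an unadjusted p under 0.05, and 26 changed sign, all in 10 genes that had no call. *Cxcr2* changed sign with quantile normalization (-0.18, also with marked spots kept), scaling to the median (-0.018), normexp (-0.12), the authors' values (-0.18) and without both mice (-0.035). *Ccl28* did so with the mean of its probes (0.15) and without both mice (0.078), and *Ccr9* with the slide row as a block and within the shared row (0.044 in each). Without both mice, *Ccl17* (-0.061), *Ccl19* (-0.27), *Ccl3* (-0.054), *Ccl7* (-0.49) and *Cxcl1* (-0.83) also changed sign. With single mice left out, sign changes occurred in 8 genes, whose values ran from -0.40 to 0.0029 for *Ccl21a*, -0.034 to 0.068 for *Cxcr2*, -0.18 to 0.14 for *Ccr9*, -0.49 to 0.91 for *Ccl7*, -0.34 to 1.07 for *Cxcl1*, -0.20 to 2.52 for *Ccl19*, -0.33 to 0.014 for *Ccl24* and -0.44 to 0.026 for *Ccl28*.

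No paired analysis was possible because the labels of the groups share no replicate numbers. A replicate block could not be fitted. Signals near the background limit what can be said of *Ccr1*, *Ccr3*, *Ccr6*, *Ccr7*, *Ccr9*, *Cxcr3* and *Cxcl17*. The same holds for the WT signals of *Ccl4* and *Cxcl2*.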
